A study of Mus musculus with 9 samples.

Results

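Cytosolic ribosomal protein genes were followed here through the adult neural stem cell lineage and its neighbours in young and old mice with and without interferon receptors. Members were taken by symbol: names that begin with Rpl or Rps and go on with a number, with a small set of suffixes, plus Rplp0, Rplp1, Rplp2 and Rpsa, leaving out the Rps6k kinases, pseudogenes and the genes of the mitochondrial ribosome. Among the 32287 counted genes 84 met this rule, 52 of the large and 32 of the small subunit. In the fit between cell classes 81 of them passed the filter on low counts and were tested, while Rpl3l, Rpl10l and Rps6 were not.

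Each ribosome is built from ribosomal RNA and a single copy of nearly every ribosomal protein, so the genes of both subunits are expressed together and make up a large part of the mRNA of growing cells. Many of these mRNAs begin with a 5′ terminal oligopyrimidine (TOP) tract, through which the growth-sensing kinase complex mTORC1 and the binding protein Larp1 control how much of the mRNA is translated. Neural stem cells (NSCs) are known to raise protein synthesis when they leave quiescence. The counts below measure mRNA at its 3′ end and hold no information on its translation.

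All mice carried TiCY, a tamoxifen-inducible Cre under the promoter of Tlx (Nr2e1) with an eYFP reporter in the Rosa26 locus, which labels NSCs and their progeny; the stated TiCY genotype of WT and KO mice also holds an altered Fas allele (Fastm1Cgn). KO mice lacked in addition the receptors for type-I and type-II interferon (Ifnar1 and Ifngr1). WT young mice were 16 weeks old and were taken 6 weeks after tamoxifen, whereas WT old (80 weeks), KO young (16 weeks) and KO old mice were taken 9 weeks after it. For KO old mice the labels give an age of 92 to 105 weeks and the methods tamoxifen at 85 and 98 weeks, which does not add up with a chase of 9 weeks. Cells were sorted from the ventricular-subventricular zone (vSVZ) by eYFP or GLAST, and from the rest of the brain (RoB: olfactory bulb, striatum and rostral migratory stream together) as eYFP+ or eYFP-/PSANCAM low cells, after removal of CD45+, Ter119+ and O4+ cells. The 2 mice of a group shared 1 reaction, so a group cannot be told apart from its library.

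The libraries held 27096070 to 78028524 unique molecular identifiers (UMIs), and 18052 cells were left after filters and doublet removal, of which 17782 fell into 10 classes named from marker genes ("-like"). The median cell of WT young had 5067 UMIs and that of the other libraries 7091 to 7437. A hashtag assigned 5813 cells to a mouse and tissue, and 60 of the 18390 cells before doublet removal carried a barcode that another library also held. In quiescent NSC-like cells Ifngr1 was at 88.2 and 85.8 counts per 1e6 UMIs (CPM) in the young and old WT libraries and at 3.01 and 3.70 in the young and old KO libraries, and Ifnar1 at 25.9 and 27.4 against 5.27 and 5.13. Both targeted genes were thus lower in this class in the libraries labelled KO, although 3′ counts can lie outside the altered exons. In single young mice Ifnar1 was lower in KO olfactory ensheathing glia-like cells too (6.78 and 7.04 CPM against 34.3 and 26.5). It overlapped between genotypes in neuroblast-like cells (11.2 and 16.0 against 18.9 and 9.40) and microglia-like cells (13.8 and 28.0 against 15.3 and 34.1).

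The start sites of several members are shown because the TOP tract lies there. RefSeq (GRCm38.p6) start sites could be matched to 64 of the 84 members. Each line gives 15 bases before and 15 bases from the annotated start on the gene's strand, so the second part is the first stretch of exon 1, and capitals mark a pyrimidine tract (C and then at least 4 further C or T, beginning within 10 bases of the start).
Rpl38 (chr11:114668565-114668594, plus strand): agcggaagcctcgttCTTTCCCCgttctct
Rpl35 (chr2:39005117-39005146, minus strand): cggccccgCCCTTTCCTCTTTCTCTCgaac
Rps18 (chr17:33955651-33955680, minus strand): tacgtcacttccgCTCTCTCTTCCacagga
Rps21 (chr2:180257364-180257393, plus strand): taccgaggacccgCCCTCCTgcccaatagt
Rpl22l1 (chr3:28805493-28805522, plus strand): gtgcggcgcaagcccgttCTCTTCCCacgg
Rplp0 (chr5:115559452-115559481, plus strand): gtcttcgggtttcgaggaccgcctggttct
Rpsa (chr9:120127751-120127780, plus strand): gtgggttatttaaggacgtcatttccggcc
Rpl35 and Rps18 are shown for their long runs. Rpl38 and Rps21, which recur below, carry the tract at this start, as does Rpl22l1, a paralog of Rpl22 described on its own below. Rplp0 and Rpsa, the pair with the largest rise from quiescent to activated NSC-like cells, hold no such run in this window. This says only that these letters are not there. A tract was present at a matched start of 38 of 64 members (59.4%) and of 32.6% of 27025 genes. The letters CCGGAA or TTCCGG, the core bound by ETS factors, stood within 50 bases of the start, both strands counted, in 22 of the 64 members (34.4%) and in 9.24% of genes. The YY1 motif GCCATNTT, both strands counted, was found there in 7 members (10.9%) against 3.42% of genes.

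Levels of single members spread widely. Mean CPM over classes and libraries, not divided by transcript length, had a median of 927 over the 84 members, with 38 members over 1000 and 12 under 40. Among the members with high levels were Rps24 (2214), Rps21 (1866), Rpl37 (1841) and Rpl41 (1767). The low end held Rpl3l, Rpl10l and Rpl39l, paralogs known from muscle or testis, but also Rps6 (1.54), Rpl27 (4.73), Rps27 (16.4), Rps12 (24.4), Rpl28 (26.4) and Rpl10 (29.9), which every ribosome uses. In the last 300 bases of the transcript, every 31-base word of Rps12, Rps27 and Rpl10 also occurred in another annotated gene, as did 84.4% of those of Rps6 and of Rpl27 and 93.0% of those of Rpl28. Many well-counted members share words with copies too, for example Rps24 (87.4%), so that the level of a member with near-identical copies is uncertain here, and levels are compared below between cells and not between members.

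**Figure D1:**
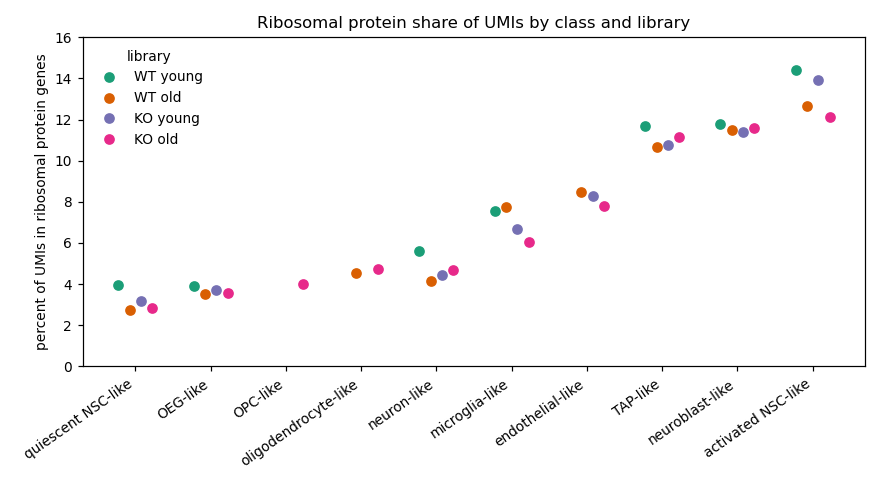
Percent of all UMIs that fell in the 84 ribosomal protein genes (vertical axis) in each cell class (horizontal axis, ordered by the mean), with 1 point per library, coloured by genotype and age. Quiescent NSC-like and olfactory ensheathing glia (OEG)-like cells lie between 2.75% and 3.97%, and activated NSC-like cells lie highest at 12.1% to 14.4%.

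Ribosomal protein mRNA took up a small share of the transcriptome in the quiescent NSC-like class and a large share in the activated NSC-like class. With libraries always listed as WT young and old, then KO young and old, quiescent NSC-like cells had 3.97%, 2.75%, 3.18% and 2.85% of their UMIs in members, and activated NSC-like cells 14.4%, 12.7%, 13.9% and 12.1%. The libraries of the 2 classes did not overlap. Astrocytes were not separated from quiescent NSCs here, and RoB cells were kept, whereas the paper removed non-subventricular astrocytes from its lineage. Outside a cluster described below as eYFP-rich, at most 8.03% of cells in any quiescent NSC-like cluster had an eYFP UMI. Most cells of the class thus had no eYFP UMI, which does not show that a cell was unlabelled. The eYFP-rich cluster had 50.6% such cells and 5.93% of its UMIs in members, below every activated library. Transit-amplifying progenitor (TAP)-like cells had 11.7%, 10.7%, 10.8% and 11.2%, and neuroblast-like cells 11.8%, 11.5%, 11.4% and 11.6%. Neuron-like cells had 5.62%, 4.13%, 4.43% and 4.71%. In their clusters 7.84% and 1.89% of cells had an eYFP UMI, against 41.6% to 83.7% in the neuroblast-like clusters. Most neuron-like cells thus had no eYFP UMI, and their comparison with neuroblast-like cells is one of classes, not of traced stages. Within single mice, activated minus quiescent NSC-like cells came to 9.76 ± 0.963 percentage points (SD, n = 7 mice, higher in 7) and neuroblast-like minus quiescent NSC-like cells to 8.09 ± 0.597 (n = 8, higher in 8). The smallest single difference, 6.96 points, exceeded the whole range of the quiescent class over libraries. Each further comparison rests on 2 mice of a single library. In the WT young mice TAP-like minus activated cells differed by -1.62 points and neuroblast-like minus TAP-like cells by -0.829 on average, and in the KO old mice neuron-like minus neuroblast-like cells by -6.91, each in the same direction in both mice.

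Between the quiescent and the activated NSC-like class the members rose almost without exception, a comparison of classes and not of traced stages. Of 81 tested members 80 were higher in activated than in quiescent NSC-like cells and 0 were lower (edgeR, adjusted p under 0.05), where 66.8% of all 14378 genes changed in either direction and 26.9% were higher. The median log2 change was 1.59 over members and -0.23 over all genes. Rplp0, the stalk protein that anchors elongation factors to the large subunit, had 643, 309, 441 and 347 CPM in quiescent and 3573, 2627, 3247 and 2562 in activated cells, the largest rise (log2 2.42 ± 0.15 SE, edgeR adjusted p = 8.0e-17). Rpsa, a small-subunit protein also known as the laminin receptor, had 761, 397, 586 and 453 CPM against 3842, 2777, 3620 and 3019 (log2 2.21). Rps26, which lines the channel through which mRNA leaves the small subunit, went from 456, 332, 385 and 343 to 2303, 1992, 2470 and 1919 CPM (log2 2.11). In each of these 3 genes the lowest activated library lay far above the highest quiescent one. Rpl34 and Rps21, whose mRNAs the study used as examples of TOP mRNAs, rose by 1.59 and 1.19. The smallest called rise was in Rpl7l1 (0.71), a paralog of Rpl7, followed by Rpl22l1 (0.86) among the members named here. Rpl39l was not called and held 1 UMI or none in each of these libraries.

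Genes of translation and ribosome biogenesis were higher in activated NSC-like cells too. All 17 genes of a list of translation factors and some other genes with TOP mRNAs rose (median log2 1.48). The list is called translation factors below for short. Among its genes were Eef1a1, which brings aminoacyl-tRNA to the ribosome (1.99), and Npm1, a nucleolar assembly factor (2.01). All 32 ribosome biogenesis genes rose as well (median 1.02), with Nop58 (2.29) and Gar1 (2.27), which act in the modification of ribosomal RNA, at the top. Rack1, a ribosomal protein whose name the rule does not cover, rose by 2.06. The 78 mitochondrial ribosomal proteins rose less: of 76 tested 34 were higher and 11 lower, with a median of 0.17. Of all genes 26.9% were higher, with a median of -0.23. Among 11 regulators of TOP mRNA and ribosomal protein genes 3 were higher and 4 lower. Mycn, a transcription factor of growing progenitors, rose by 3.29 and Myc fell by 1.45 on the log2 scale.

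**Figure D2:**
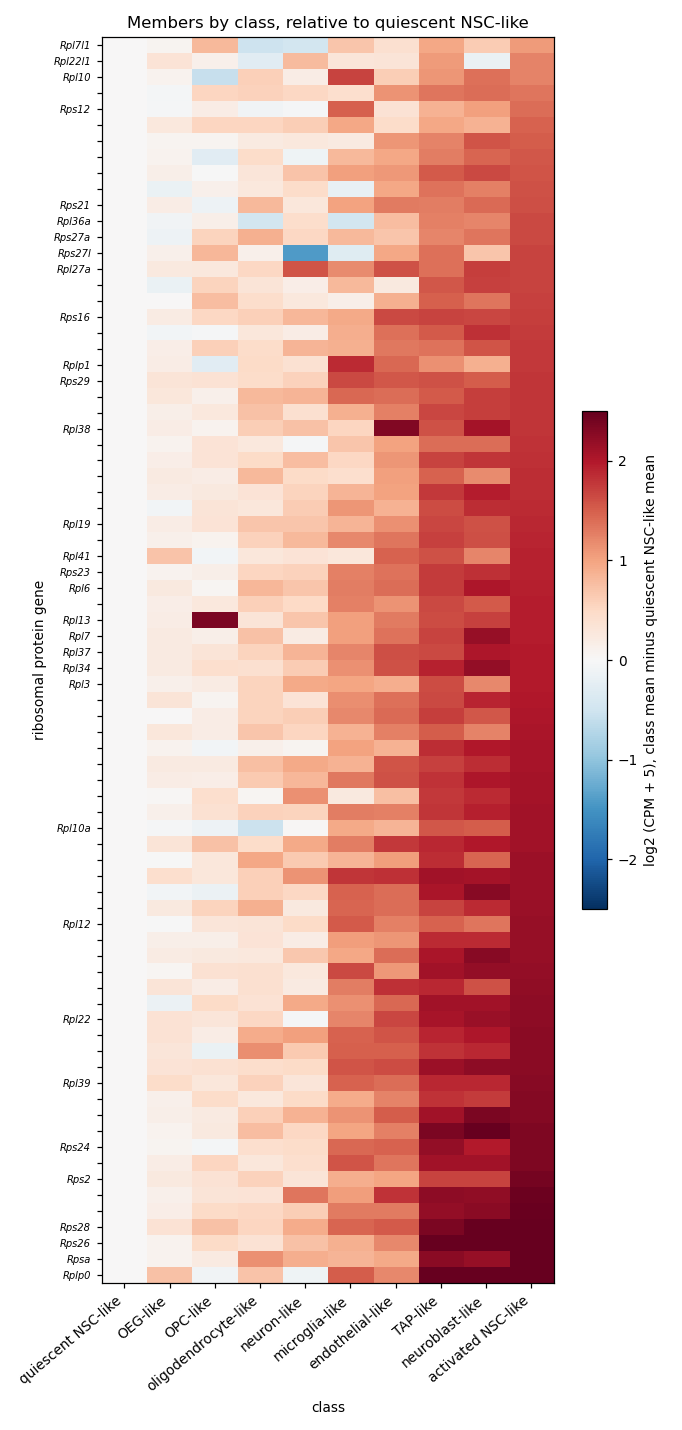
Each row is a ribosomal protein gene, with some of them labelled, and each column a cell class; colour gives the class mean of log2(CPM + 5) minus the quiescent NSC-like mean, from blue (lower) to red (higher), and deepens no further beyond 2.5. Activated NSC-like, TAP-like and neuroblast-like columns are red in nearly every row, while Rpl22l1 is blue in neuroblast-like cells and Rps27l in neuron-like cells.

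Between the 3 progenitor classes the median member changed little. From activated NSC-like to TAP-like cells 1 member was higher and 15 were lower of 81 (32.6% of all genes changed, 19.5% of all genes lower). The share of members that were lower was thus near that of all genes, and the median log2 change was -0.14 against -0.11 over all genes. Rps2 (-0.60), Rpl12 (-0.60) and the poorly counted Rps12 (-0.56) had the largest falls, and 20 of 32 biogenesis genes were lower (median -0.53). Without the KO young or the KO old library the count of 16 dropped to 5, and on sums per mouse to 0. The lower count also moved with the scaling, to 4 when the scaling factors were taken without the members and to 41 with library totals alone, an alternative added after the data were seen. From TAP-like to neuroblast-like cells 6 members were higher and 12 lower, with a median of 0.04 (46.4% of all genes changed). Rpl7 rose (0.46), as did Rpl38 (0.46), and Rpl22l1 fell by 1.32 on the log2 scale. Rps27l, a paralog of Rps27 known as a p53 target, fell by 0.75. Without the WT young library 10 members were called and without KO young 9.

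Set directly against quiescent NSC-like cells, neuroblast-like cells had 79 members higher and 1 lower of 81 (74.3% of all genes changed, 29.8% higher), with medians of 1.48 over members and -0.29 over all genes. Rps26 had 456, 332, 385 and 343 CPM in quiescent and 2268, 2462, 2380.0 and 2461 in neuroblast-like cells (log2 2.33 ± 0.11 SE, edgeR adjusted p = 2.9e-20). Rplp0 rose by 2.30. Translation factors followed, with 16 of 17 higher (median 1.26), and 19 of 32 biogenesis genes were higher and 4 lower (median 0.43). Of 76 mitochondrial ribosomal proteins 16 were higher and 33 lower, with a median of -0.17 against -0.29 over all genes. Eif4ebp1, the mTORC1-controlled repressor of cap-dependent translation, fell by 2.52 on the log2 scale.

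Neuron-like cells had lower levels of most members than neuroblast-like cells. Of 81 tested members 76 were lower than in neuroblast-like cells and 1 was higher (57.9% of all genes changed, 23.8% lower), with medians of -1.27 over members and 0.12 over all genes. Rplp0 was at 771, 244, 325 and 271 CPM in neuron-like against 2909, 2405, 2617 and 2521 in neuroblast-like cells (log2 -2.87 ± 0.16 SE, edgeR adjusted p = 2.8e-18). Every neuron-like library was below every neuroblast-like one. Rps27l fell by 2.29 and Rpl22 by 2.29, and Rpl3, which shapes the peptidyl transferase centre, by 0.32. Rpl27a, Rpl27, Rps27 and Rpl39l were not called; Rpl27a had 118.5, 75.2, 119.6 and 98.6 CPM in neuron-like and 116.3, 123.9, 110.3 and 110.9 in neuroblast-like cells. Of the translation factors 16 of 17 were lower, whereas 21 mitochondrial ribosomal proteins were higher and 21 lower of 76.

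Microglia-like cells, the resident macrophages of the brain, had 7.55%, 7.75%, 6.69% and 6.07% of UMIs in members, 3.16 ± 0.943 points above quiescent NSC-like cells within mice (n = 6, higher in 6). Of 81 members 70 were higher and 1 lower than in quiescent NSC-like cells (56.3% of all genes changed, 24.8% higher; member median 0.99). Rplp1, a partner of Rplp0 in the stalk, had 3272, 3423, 2585 and 2735 CPM against 1012, 731, 785 and 758 (log2 1.81), and no library of the 2 classes overlapped. Rpl10, which joins the large subunit late in assembly, was 1.97 higher, though every 31-base word at its 3′ end is shared with another gene. Rps27l was lower (-0.38). Rpl39l had 6, 0, 1 and 1 UMIs in microglia-like and 0, 1, 0 and 0 in quiescent cells, too few for a fold, although edgeR counted it among the 70. In the same comparison 0 of 76 mitochondrial ribosomal proteins were higher and 53 lower (median -0.83), so the cytosolic and the mitochondrial sets moved in opposite directions.

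Endothelial-like cells, with 8.46%, 8.29% and 7.77% in WT old, KO young and KO old and too few cells in WT young, had 68 members higher and 0 lower of 81 than quiescent NSC-like cells (33.5% of all genes changed, 13.4% higher; member median 0.93). Rpl38, known for its part in translating Hox mRNAs, stood out (log2 1.76 ± 0.12 SE, edgeR adjusted p = 5.3e-15). It had 3240 CPM in WT old and 2875 in KO old against 554 and 619 in quiescent cells. The log2 change also takes in the KO young library and edgeR's scaling factors. With library totals alone the member median was 1.35. OEG-like cells, the glia that wrap olfactory axons, were the class nearest to quiescent NSC-like cells, at 3.89%, 3.50%, 3.71% and 3.59%. Within mice the difference was 0.265 ± 0.524 points (n = 8, higher in 6, from -0.711 to 0.883). The test on single members called 30 higher and 0 lower of 81 (53.0% of all genes changed, 24.9% higher), led by Rplp0 (0.83) and Rpl41 (0.76), with a median of 0.20. Without the WT old, KO young or KO old library 16, 16 and 13 members were called. Oligodendrocyte-like cells had 4.53% in WT old and 4.74% in KO old, and oligodendrocyte precursor (OPC)-like cells 4.01% in KO old.

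Rpl22 and its paralog Rpl22l1, alternative forms of an RNA-binding protein on the surface of the large subunit, did not move together. Rpl22 lies on chromosome 4 (152325742 to 152334071) and Rpl22l1 on chromosome 3 (28805436 to 28807424) of GRCm38. In neuroblast-like cells Rpl22 was at 1302, 1247, 1291 and 1306 CPM against 336, 243, 296 and 260 in quiescent NSC-like cells (log2 1.86), while Rpl22l1 was at 133, 160, 119 and 137 against 173, 163, 138 and 143 (log2 -0.51 ± 0.10 SE, edgeR adjusted p = 3.3e-05). The CPM of this gene overlapped between the 2 classes, and part of the log2 change came from edgeR's scaling factors. The call was lost with library totals alone (-0.18, edgeR adjusted p = 0.098), when the scaling factors were taken without the members (-0.20, edgeR adjusted p = 0.088), at Leiden resolution 0.5 (-0.04) and with doublets kept (-0.13). Rpl22l1 was also the only member called higher in neuron-like than in neuroblast-like cells, at 277, 265, 254 and 292 CPM (log2 0.97 ± 0.11 SE, edgeR adjusted p = 9.5e-10).

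As a share of the UMIs of both genes per mouse, a measure chosen after the data were seen and therefore given without a test, Rpl22l1 made up 35.1% on average in quiescent NSC-like cells (8 mice), 23.5% in activated cells (7 mice), 9.77% in neuroblast-like cells (8 mice) and 56.7% in neuron-like cells (2 mice, both KO old). Neuroblast-like cells were lower than quiescent cells of the same mouse in 8 of 8 mice (-29.4 to -20.9 points), and activated cells in 7 of 7 (-17.9 to -5.22 points). Neuron-like cells were higher than neuroblast-like cells in both mice, by 45.8 and 47.8 points. OEG-like cells differed from quiescent cells by 1.22 ± 6.00 points (n = 8 mice). In Rpl22l1 62.6% of the 31-base words near the 3′ end occur elsewhere, and in Rpl22 39.6%, so that the shares are specific to this way of counting and the differences between classes rest on the same counting in each.

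**Figure D3:**
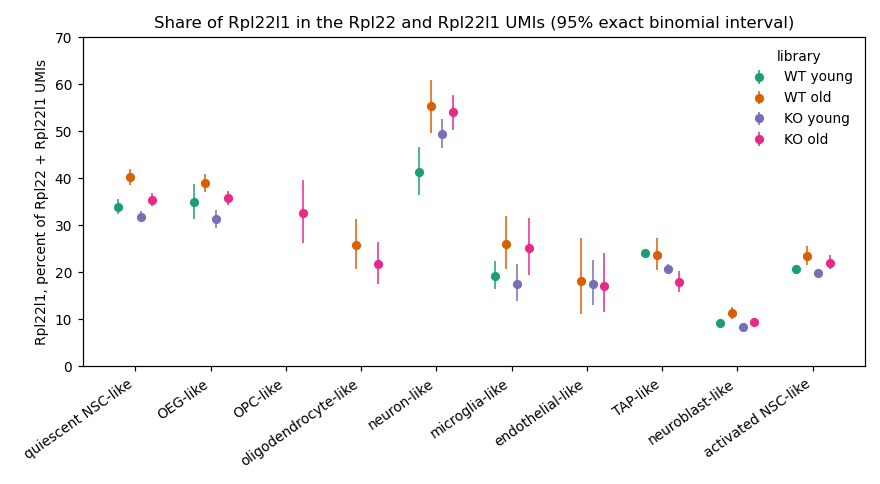
Share of Rpl22l1 in the summed UMIs of Rpl22 and Rpl22l1 (vertical axis, percent) by cell class (horizontal axis), with 1 point per library and 95% exact Clopper-Pearson intervals, which cover counting error only. Neuroblast-like libraries lie at 8.42% to 11.4% and neuron-like libraries at 41.4% to 55.3%.

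Quiescent cells were not uniform. A cluster of 1044 quiescent NSC-like cells, drawn without the ribosomal protein genes, had the highest share of cells with an eYFP UMI in that class (50.6% at a median of 6537 UMIs, against 4.86% of microglia-like cells at 5249 UMIs) and Prss56, Thbs4 and Crym among its leading genes. In vSVZ cells its member share was 6.34% and 6.61% in the WT young mice against 2.90% and 2.83% in the other quiescent clusters. WT old mice had 5.41% and 6.14% against 2.56% and 2.43%, KO young mice 5.41% and 5.74% against 2.62% and 2.68%, and KO old mice 6.15% and 5.40% against 2.55% and 2.46%. The difference was 3.27 ± 0.406 points (n = 8, higher in 8), and no cluster value of any mouse reached down to the highest of the others. A raised share was not particular to this cluster. Over all libraries and tissues, a quiescent NSC-like cluster of 145 cells had 4.46% of UMIs in members, with an eYFP UMI in 6.90% of its cells. It was counted among the other clusters, the rest of which had 2.17% to 2.68%.

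Of 79 tested members 77 were higher in the eYFP-rich cluster and 0 lower (41.3% of all genes changed), with a median of 1.00 over members and 0.02 over all genes. Rplp0 had 1208 and 1309.6 CPM in the cluster and 357 and 343 outside it in WT young mice, and 1079 and 758 against 270 and 264 in KO old mice (log2 1.60 ± 0.07 SE, edgeR adjusted p = 3.9e-23). Rpsa was 1.34 higher and Rps19, a gene mutated in Diamond-Blackfan anaemia, 1.25. Rps27l and Rpl36al showed the smallest called differences among the named members, 0.29 each. Translation factors were higher in 15 of 17, biogenesis genes in 14 of 28 and mitochondrial ribosomal proteins in 7 of 74, with 4 lower. Beside these, 5 of 6 tested activated NSC markers were higher (median 1.01; their sum was 846 to 1687 CPM in the cluster and 324 to 511 outside), as were 4 of 5 tested ependymal markers (median 3.25). Of the OEG markers 1 of 2 tested was higher, with sums of 480.3 to 1325 CPM in the cluster and 70.2 to 109 outside, and of the neuroblast markers 1 of 6, with 253 to 603 against 100.4 to 241. In turn all 8 quiescent markers were lower (median -0.95). The part of these markers in the result was not tested, and the cluster was drawn from other genes of the same cells. At a coarser clustering these cells left the quiescent class, 1037 of them into an unnamed cluster.

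vSVZ quiescent cells had a higher member share than those of the RoB in 7 of 8 mice. Shares were 4.52% and 4.85% against 3.50% and 3.65% in young WT mice and 3.16% and 2.87% against 2.78% and 2.92% in old WT mice. In KO mice they were 3.60% and 3.82% against 2.93% and 3.42% when young and 3.18% and 3.02% against 2.61% and 2.71% when old (difference 0.561 ± 0.402 points). edgeR called 48 of 79 members higher and 0 lower in the vSVZ (13.5% of all genes changed, 6.41% higher; median 0.22), with Rpl7 (0.41), Rpl14 (0.39) and Rpl17 (0.37) in front. Without the eYFP-rich cluster, an alternative added after the data were seen, the direction turned: the difference was -0.207 ± 0.177 points (higher in 1 of 8 mice), with 0 members higher and 5 lower (10.8% of all genes changed). Sums of OPC markers were lower in the vSVZ cells (25 to 48 CPM against 129 to 188), as were those of activated NSC markers (434 to 887 against 791 to 1733, lower in 8 of 8 mice), whereas OEG markers were higher (180 to 487 against 39.9 to 169, in 8 of 8 mice). The part of these markers in the result was not tested.

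Quiescent vSVZ cells of old WT mice held less ribosomal protein mRNA than those of young WT mice. WT young mice were at 4.52% and 4.85%, WT old mice at 3.16% and 2.87%, KO young mice at 3.60% and 3.82% and KO old mice at 3.18% and 3.02%, so both young groups lay above both old groups and WT young mice above KO young mice. In WT 60 of 79 members were lower and 2 higher in old mice (16.9% of all genes changed, 8.66% lower; medians -0.61 over members and 0.03 over all genes). Rplp0 was at 759 and 859 CPM in WT young and at 381 and 323 in WT old mice (log2 -1.20 ± 0.10 SE, edgeR adjusted p = 1.2e-09). Rpsa fell by 1.11 and Rps2 by 1.08. The members that were higher were Rps29 (447 and 423 CPM in WT young, 590 and 535 in WT old; log2 0.38) and the poorly counted Rps27 (3.53 and 7.36, 10.0 and 17.2). Translation factors fell in 13 of 17, biogenesis genes in 5 of 31 and mitochondrial ribosomal proteins in 11 of 76.

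In KO mice 17 of 79 members were lower and 0 higher with age (4.39% of all genes changed, 2.27% lower; median -0.21). Rplp0 was at 535 and 584 CPM in KO young and at 413 and 358 in KO old mice (log2 -0.51), and Rps28 (-0.51) and Rpsa (-0.47) fell similarly. Leaving out a mouse moved this count to 6 and 1 without the KO young mice and to 8 and 6 without the KO old mice.

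Between genotypes, 47 members were lower and 3 higher in KO than in WT young mice (3.52% of all genes changed, 1.69% lower; median -0.36). Rps23, which sits at the decoding centre, had 180 and 199 CPM in KO young and 313 and 345 in WT young mice (log2 -0.78 ± 0.10 SE, edgeR adjusted p = 1.6e-05). Rps29 (704 and 712 against 447 and 423 CPM), Rpl38 (900 and 960 against 575 and 578) and Rps28 (411 and 436 against 295 and 288) were higher in KO. Without WT young mouse 2 the count was 11, and without KO young mouse 1 it was 19. In old mice 0 of 79 members differed between genotypes in edgeR (0.267% of all genes changed; 12 members and 863 genes at an unadjusted p under 0.05, and 0 members in DESeq2), with a median of 0.08. The age change differed between genotypes in 37 members (34 positive and 3 negative, KO minus WT; 2.16% of all genes), but in 6 without WT young mouse 2, 17 without WT old mouse 2 and 19 without KO young mouse 1.

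Composition moved with these groups. Of quiescent vSVZ cells, 46.7% and 52.7% belonged to the eYFP-rich cluster in WT young mice, against 21.6% and 11.6% at old age; the KO mice had 37.8% and 38.3% when young and 17.6% and 16.9% when old. Without it, an alternative added after the data were seen, 24 members were lower and 3 higher with age in WT (4.33% of all genes changed), 1 lower and 0 higher with age in KO (1.63%), 2 lower and 3 higher in KO than WT young mice (0.691%), and 4 were called for the interaction (0.298%). Near-empty barcodes, which hold free RNA, had 9.64%, 4.04%, 6.46% and 3.90% of UMIs in members in the 4 libraries, the same order as in the quiescent cells except that the old groups changed places. The KO young value rests on only 10028 such barcodes with 217533 UMIs, against 77776 to 80707 barcodes in the other libraries. Neuroblast markers were also lower in old mice, 7 of 8 tested in either genotype, with sums of 376 to 393 CPM (WT young), 276 to 286 (KO young), 153 to 168 (WT old) and 140 to 145 (KO old). Activated NSC markers summed to 781 and 887 CPM in young WT mice and 434 and 480.1 in old WT mice, with 3 of 6 tested lower at old age, and to 680 and 711 in young and 718 and 635 in old KO mice, with 1 of 6 lower. The parts of these markers, of free RNA and of depth in the age and genotype results were not tested.

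**Figure D4:**
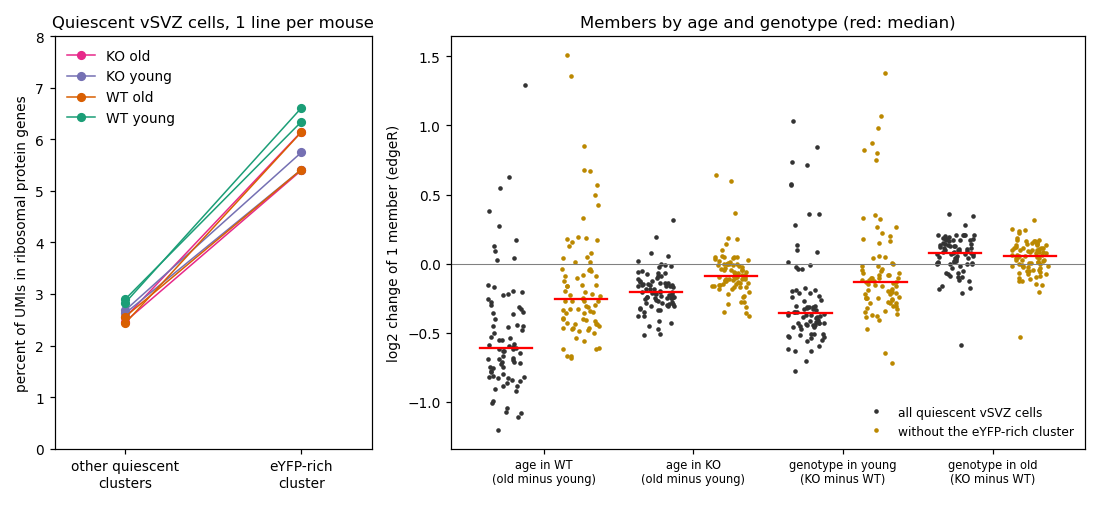
Left, percent of UMIs in ribosomal protein genes in vSVZ quiescent NSC-like cells of each of 8 mice, outside and inside the eYFP-rich cluster, with a line per mouse. Right, edgeR log2 change of each of the tested members with age and genotype, for all quiescent vSVZ cells (black) and without the eYFP-rich cluster (ochre), with the median as a red line; the median for age in WT is -0.61 with the cluster and -0.26 without it.

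Neuroblast-like cells kept their member share over age and genotype, between 11.4% and 11.8% in all libraries, while single members changed in both directions. In WT 8 members were higher and 18 lower in old mice (3.01% of all genes changed; median -0.04). Rps29, a small zinc-binding protein of the small subunit, had 961 and 867 CPM in WT young and 1773 and 1688 in WT old mice (log2 0.89 ± 0.09 SE, edgeR adjusted p = 1.5e-12). Rps28 (0.80) and Rpl38 (0.71) were higher as well, and Rpl6 (-0.47), Rpl19 (-0.45) and Rpl10a (-0.42) lower. In KO young against WT young mice 9 members were higher and 5 lower (1.22% of all genes changed), with Rpl38 at 1.01, Rps28 at 0.94 and Rps29 at 0.93. The poorly counted Rps16 was at 1.32 (37.7 and 26.3 CPM in WT young, 80.4 and 81.4 in KO young mice). Both comparisons share the WT young mice. Leaving out a WT young mouse reduced the first count from 26 to 10 or 15 and the second from 14 to 7 or 6, and leaving out KO young mouse 1 reduced the second to 7.

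In old neuroblast-like cells 0 of 79 members differed between genotypes in edgeR (0.0446% of all genes changed; 11 members and 469 genes at an unadjusted p under 0.05; 0 in DESeq2), and 0 with age in KO mice (0.342%; 16 and 576; 0 in DESeq2). The age change differed between genotypes in 6 members (0.446% of all genes), from Rps29 (-1.10 in KO minus WT) to Rpl13 (0.43), and in 3 without either WT young mouse. OEG-like cells, a class added after the data were seen, had Rpl38 at 438 and 519 CPM in young and 718 and 710 in old WT mice, and at 907 and 921 in young and 721 and 780 in old KO mice. In this class 4 members were higher and 0 lower in KO than WT young mice (0.575% of all genes changed), namely Rpl38 (0.96), Rps29 (0.94), Rps28 (0.85) and Rpl39 (0.60), of which 2 were called without WT young mouse 1 or KO young mouse 2. With age in WT 2 were higher and 5 lower (2.01%), but 18 and 1 were called without WT young mouse 1 and 2, 0 without either WT old mouse, and 4 and 3 without KO young mouse 1 and 2. In these OEG-like cells neuroblast markers summed to 75.9 and 717 CPM in young and 16.6 and 16.8 in old WT mice, with 5 of 8 tested lower, and to 359 and 93.3 in young and 19.6 and 25.3 in old KO mice, and their part in the result was not tested. In old OEG-like cells 0 of 79 members differed between genotypes (0.387% of all genes; 5 members and 819 genes at an unadjusted p under 0.05, 0 members in DESeq2), with age in KO 0 (0.278%; 6 and 960; 0 in DESeq2), and for the interaction 0 (0.0%; 20 and 995; 3 in DESeq2). Microglia-like cells had a call in Rps29 only, 1 of 76 members (0.573% of all genes changed), at 888 and 1068 CPM in WT young and 1495 and 1858 in KO young mice (log2 0.73 ± 0.19 SE, edgeR adjusted p = 0.028), and 0 without either WT young mouse or KO young mouse 2.

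Across classes the WT young library thus had a profile of members of its own. For the 78 members with a mean of at least 20 CPM in 7 classes, log2(CPM + 5) in the WT young library minus the mean of the other 3 libraries was centred on the members' median. In all 7 classes 20 members were below that median and 18 above. Lowest on average were Rps27a (-1.08), Rps16 (-0.89), Rps29 (-0.88), Rpl38 (-0.84), Rpl36a (-0.81) and Rps28 (-0.79), and highest Rps2 (0.34), Rplp0 (0.29) and Rpl6 (0.28). Rps27a, Rps16 and Rpl36a were poorly counted. In quiescent vSVZ cells of the WT young mice they were at 9.41 and 14.1, 11.8 and 8.70, and 14.1 and 22.1 CPM. The SD over members was 0.313 for WT young, against 0.160, 0.157 and 0.0955 when WT old, KO young or KO old was set against its 3 others, where 19, 15 and 6 members were above and 18, 14 and 6 below in all classes. The members below had a median transcript length of 529 bases (271 to 1109) and those above 826.5 bases (560 to 1908). Over the 78 members Spearman's rho with transcript length was 0.476, -0.441, -0.110 and -0.342 in the 4 libraries, a description in which the members share libraries and each library is set against the other 3. WT young was also the library with the shallowest cells and the 6-week chase, and these cannot be told apart from the group.

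**Figure D5:**
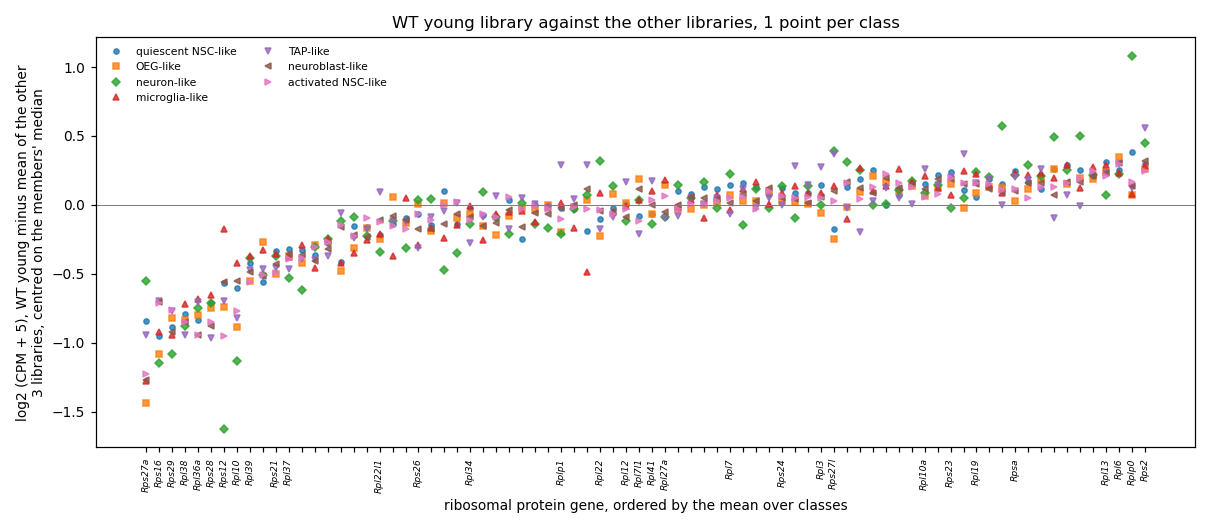
For each of 78 ribosomal protein genes (horizontal axis, ordered by the mean over classes, some of them labelled), log2(CPM + 5) in the WT young library minus the mean of the other 3 libraries, centred on the members' median (vertical axis), with a symbol for each of 7 cell classes. Rps27a, Rps16, Rps29, Rpl38, Rpl36a and Rps28 lie low in every class, and Rps2, Rplp0 and Rpl6 lie above 0 in every class. Rps27a, Rps16 and Rpl36a are poorly counted.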

How the data were processed

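Expression of sorted mouse brain cells was measured with 10x 3′ chemistry in 4 libraries, each with a hashtag library that marked tissue and mouse. Per the study's methods the authors counted reads with kallisto and bustools in its spliced and unspliced workflow (GRCm38 in the submitters' processing notes) and hashtags with CITE-seq-Count; the deposited values were raw UMI counts per barcode and gene, and raw hashtag counts per barcode, without cell filters. Barcodes were kept as cells at 100 to 6000 genes and 1000 to 20000 UMIs if mitochondrial UMIs were below 10%, and 338 doublets were removed with Scrublet (scanpy 1.11.5). Leiden clusters (leidenalg 0.10.2, resolution 1) were built without the members, named from fixed markers, and hashtags called with a multinomial mixture. Names rebuilt here may differ from those of the study. UMIs were summed per class and library, or per class and mouse (at least 20 cells), and compared by the quasi-likelihood test of edgeR 4.0.16 (R 4.3.3; TMM, filterByExpr, Benjamini-Hochberg over all genes, threshold 0.05), with the library or mouse as a block between classes, tissues and clusters. Fold changes are on the log2 scale and their SE is given. With library sums as units, p-values rest on how class differences vary over up to 4 libraries, pooled over classes. In age and genotype fits they rest on the spread between the 2 mice of a group, pooled over groups. In tissue and cluster fits they rest on how differences within mice vary over 8 mice. Shares over all members are given without a p. Named were, per comparison, the 3 called members with the largest change in each direction, paralog pairs, members of high level, Rpl34 and Rps21, and the called genes of each list with the largest changes; others were named after their values were seen. Members, markers and lists were chosen with earlier results of these data known. DESeq2 1.42.0, other scalings, filters and clusterings, kept doublets and left-out libraries or mice were tried. Positions are from GENCODE (GRCm38) by gene ID. The fits were tested on simulated data. A sample without a group label was not used. Single values of some named genes are not reported here.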

Additional observations from a re-analysis of the deposited data

Results flagged for a closer look

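The change with age differed between KO and WT by an interaction test (edgeR, adjusted over all genes) in 37 of 79 members in quiescent NSC-like vSVZ cells (2.16% of all genes). Without the eYFP-rich cluster 4 were called, and without WT young mouse 2 it was 6. Relative to WT, the old minus young change in KO was higher by 0.84 on the log2 scale for Rpl13, a large-subunit protein, by 0.82 for Rps23 and by 0.81 for Rpl29, and it was -0.80 for Rps29, -0.64 for Rps28 and -0.54 for Rpl38. In neuroblast-like cells the same test called 6 of 79 members (0.446% of all genes; 3 without either WT young mouse), with 0.43 for Rpl13, -1.10 for Rps29, -0.97 for Rps28 and -0.89 for Rpl38. Rpl13 was at 1148 and 1208 CPM in the quiescent cells of young and 585 and 552 in those of old WT mice, and at 699 and 797 in young and 652 and 624 in old KO mice, so WT young mice stood apart from the other 3 groups. Each group was a single reaction.

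Barcodes with under 100 UMIs, which no comparison used, held member UMIs in every library: 9.64% and 4.04% in the young and old WT libraries, and 6.46% and 3.90% in the young and old KO libraries. KO young had 10028 of these barcodes, against 77776 to 80707 in the other libraries. In 6 sets of within-mouse differences, none held a mouse that stood apart from the other mice. No mouse was compared with its own age and genotype group, so outlying mice within a group were not tested for.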

How the results depend on the processing

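Of the values for single genes 4402 kept their direction and side of the threshold under an alternative, 557 kept the direction and lost the call, and 20 reversed; of the counts and shares 427 stayed within their limits, 90 moved and 2 reversed, with causes not tested. Members called between classes were most open to the processing in the small steps. TAP-like minus activated cells (16) gave 6 when scaled without members, 42 with library totals alone, 10 without a filter, 4 at Leiden resolution 0.5, 7 with doublets kept and 0 per mouse, and 5 to 12 without a library. Neuroblast-like minus TAP-like cells (18) gave 11 at resolution 0.5 and 9 to 16 without a library. OEG-like minus quiescent cells (30) gave 17 without a filter, 47 with DESeq2, 66 at resolution 0.5, 59 with doublets, 9 in vSVZ cells and 13 to 42 without a library. Resolution 0.5, at which the eYFP-rich cells left the quiescent class, gave 27 for age in WT (62) and 1 for age in KO (17). It also gave 5 for genotype in young mice (50), 4 for the interaction (37) and 5 for tissue (48). Its eYFP-rich comparison gave 1 (77), but for a different set of cells. As 1037 of the 1044 original cells were unnamed there, it took the eYFP-richest cluster still named quiescent. Leaving out the original eYFP-rich cluster gave 27, 1, 5, 4 and 5 for the 5 comparisons from age in WT to tissue. Keeping doublets gave 30 for age in KO, 33 for genotype, 12 for the interaction and 29 for tissue. Stricter hashtag calls gave 9, 32 and 18 for age in KO, genotype and interaction. DESeq2 gave 7 for age in KO. Clustering with the members not left out gave 16 for the interaction and 30 for tissue. As 0 members were among the variable genes it used, it does not test clustering on members. Without a mouse, quiescent counts were 1 to 20 (age in KO), 11 to 51 (genotype in young) and 6 to 37 (interaction), neuroblast-like counts 10 to 26 (age in WT), 0 to 1 (age in KO), 6 to 17 (genotype in young), 0 to 1 (genotype in old) and 3 to 7 (interaction), and OEG-like counts 0 to 18 (age in WT), 2 to 6 (genotype in young) and 0 to 3 (interaction). The Rps29 call in microglia-like cells (1) became 0 without a filter, with DESeq2 and with doublets, and 0 to 2 without a mouse. OEG-like age in WT (7) gave 13 without a filter and 22 with doublets, and the interaction (0) 3 without a filter, 3 with DESeq2 and 2 with doublets. Share differences moved to 8.93 points at resolution 0.5 and 7.04 with strict hashtags (neuroblast-like minus quiescent), and to -7.13 without mitochondrial UMIs (neuron-like minus neuroblast-like). They moved to 5.62 at resolution 0.5 and 4.24 with doublets (endothelial-like minus quiescent), and to 1.05 at resolution 0.5 (OEG-like minus quiescent). The eYFP-rich minus other difference was 2.86 with doublets, and 0.31 at resolution 0.5 for the different set of cells. The tissue difference reversed to -0.206 at resolution 0.5 and -0.207 without the eYFP-rich cluster, and with it, in that order, Rpl41 (-0.072, -0.073), Rack1 (-0.049, -0.050), Rps24 (-0.16, -0.16), Rpl37 (-0.043, -0.044), Rpl3 (-0.094, -0.10) and Rps4x (-0.055, -0.055). Rps21 reversed for age in WT (0.075 and 0.076), and Mycn at resolution 0.5 in microglia-like (0.25) and OEG-like cells (0.24). Mtor (0.13), Mrps22 (0.40) and Dkc1 (-0.036) reversed in the eYFP-rich comparison at resolution 0.5, again for the different set of cells. Rptor reversed per mouse in neuroblast-like minus TAP-like cells (-0.030). No paired analysis was possible because hashtag 1 of a group and hashtag 1 of another mark unrelated mice; tissue and cluster comparisons were within mice. With 2 mice a group and 1 reaction each, differences between groups below the spread of mice were not detectable, and reaction and group cannot be told apart.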
